A study of Mus musculus with 30 samples.

Results

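The 8 genes described here encode antibody chains or belong to the B cell line: Igha, Ighm, Ighg2c, Iglc1, Jchain, Cd79b, Blk and Ms4a1. They were taken as a group from the 6136 genes named on the arrays because earlier results of these same data showed immunoglobulin genes higher in kidneys of old control mice than in young ones. All their probe sets on both array types were kept, 16 in number. Of these, 10 lay above the background floor on at least 5 arrays and were measured, 7 of them for the immunoglobulin chains and Jchain and 3 for the B cell genes Cd79b, Blk and Ms4a1. The other 6 did not pass that filter and are given by their range.

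Antibodies are made by B cells that have matured into plasma cells. A B cell carries its antibody on the surface with the signalling chains CD79a and CD79b and the surface protein CD20, the product of Ms4a1, and passes the signal on through kinases such as Blk. A plasma cell secretes antibody, devotes much of its messenger RNA to heavy and light chain transcripts, and has turned off much of the B cell surface and signalling program. IgA and IgM leave the cell as polymers held together by the J chain, and the polymeric immunoglobulin receptor, Pigr, carries these polymers across epithelia. The 2 kinds of gene, antibody chains with Jchain on one side and surface and signalling genes on the other, were therefore compared animal by animal.

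Kidney total RNA came from C57BL/6 mice, an inbred strain, in 3 groups of 5: young controls fed the control diet and aged 5 months, old controls fed the control diet and aged 30 months, and calorie-restricted mice aged 30 months, which received less food. No allele, transgene or other agent is named. Each mouse was measured on 2 array types, called table A and table B, so that 30 arrays were used. That the 5 numbers in a group stand for 5 different mice is not stated by the labels. They are taken as animals here, and if they are not, p-values measure only a spread between samples that may be technical. Whole kidney RNA was measured, so fewer cells of a type and less RNA per cell cannot be told apart.

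Intensities are the deposited values scaled between the arrays of a table. A floor of 1103 was set in table A and of 1815 in table B, from the size of the negative values, and changes are on the log2 scale after raising values to that floor. A change therefore understates the difference where a group lies near the floor. Between 33.5% and 37.5% of the values of a table A array and between 24.0% and 27.8% of a table B array lay above it. The kidney markers were strong in every group, with the phosphate transporter Slc34a1 at 51961 to 71071. The animals numbered 1 to 3 and those numbered 4 and 5, called number sets here, stood apart. After the group means were removed, animals of different groups were correlated with each other across probe sets. The mean r was 0.267 for different numbers of the same number set, and -0.285 for numbers of different sets. The labels do not say what the numbers mean. Changes of the members are therefore also given for each set alone. Both comparisons, old against young controls and calorie-restricted mice against old controls, use the same old controls, so their values for a gene are not independent.

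The sequence tables at hand held a promoter for 1 of the 8 genes, Jchain, which is shown because its transcript was below the floor in every young control and above it in every old one. These are the 250 bases before the start of transcription on the minus strand, chr5:88527898-88528147 of the RefSeq build GRCm38.p6, written 5′ to 3′, with capitals on each match to the E-box CANNTG, the core that E2A-type factors bind.
Jchain promoter: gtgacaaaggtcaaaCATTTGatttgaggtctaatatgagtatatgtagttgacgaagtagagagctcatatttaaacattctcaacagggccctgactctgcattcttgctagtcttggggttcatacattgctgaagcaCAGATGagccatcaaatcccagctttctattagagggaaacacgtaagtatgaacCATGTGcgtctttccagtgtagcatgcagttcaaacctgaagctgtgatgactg
The E-box, which reads the same on either strand, occurred 3 times, beginning at 235, 109 and 54 bases before the start. It was present in 66.2% of 32851 mouse promoter windows of this length. The octamer ATTTGCAT, the element of immunoglobulin promoters, was searched on both strands and these letters were not in the window. They occurred in 1.60% of the windows. The letters TATAAA were likewise not in it, and occurred in 12.4%. These matches describe the sequence and say nothing about binding in these kidneys.

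Igha encodes the heavy chain of IgA, the antibody of mucosal surfaces. Its probe set d11468_s_at on table A read 473, 2656, 3795, 1201 and 630 in young controls 1 to 5, with 2 of the 5 below the floor. In old controls it read 48259, 33112, 41138, 28605 and 53947. The calorie-restricted animals lay between, at 6382, 9813, 9775, 19152 and 2076. Every old control stood above every animal of the other groups, while calorie-restricted animal 5 lay within the range of the young. The group means were 1751 ± 1431, 41012 ± 10443 and 9440 ± 6288 (SD, n = 5 each). The log2 change was 4.54 ± 0.48 (SE) from young to old controls, and -2.40 ± 0.48 from old controls to calorie-restricted mice. Animals 1 to 3 alone gave 4.18 and -2.25, and animals 4 and 5 alone gave 5.09 and -2.64. Calorie-restricted mice stayed 2.14 ± 0.48 above young controls, with 4 of 5 above all young animals.

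Ighm encodes the heavy chain of IgM, which serves both as the surface receptor of B cells and as a secreted pentamer. Its brightest probe set, X03690_s_at on table B, read 4786, 3432, 3118, 1281 and 3041 in young controls. Old controls read 27174, 31742, 21387, 48339 and 100585. Calorie-restricted animals read 9333, 5335, 5322, 8683 and 5364. The 3 groups did not overlap on this probe set, and the spread was widest in old controls, where animals 4 and 5 were the highest. The change was 3.66 ± 0.36 with age and -2.57 ± 0.36 with the diet, and calorie-restricted mice stood 1.09 ± 0.36 above young controls. Both changes were larger in numbers 4 and 5, at 4.89 and -3.35, than in numbers 1 to 3, at 2.83 and -2.04, and this difference between sets was not tested.

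A table A probe set of Ighm, J00475_V00821_f_at, gave the same order of old controls over the rest on the other array. Young controls read 5919, 3274, 4287, 2433 and 2345, old controls 7608, 11653, 12958, 10958 and 21017, and calorie-restricted animals 4535, 6170, 4169, 3795 and 2843. Here calorie-restricted and young animals overlapped, with a difference of 0.28 ± 0.29. The change was 1.82 ± 0.29 with age and -1.54 ± 0.29 with the diet, and again larger in numbers 4 and 5 (2.67 and -2.21) than in numbers 1 to 3 (1.26 and -1.10). The suffix f in such names marks a probe set that can read several members of a sequence family, so transcripts other than Ighm may contribute.

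The third measured probe set of Ighm, Msa.2056.0_f_at on table B, was above the floor only in old controls, at 7531, 4482, 4744, 4274 and 5887. Young controls read between -817 and 1171 and calorie-restricted animals between 784 and 1605, all below the floor. Old controls were thus at least 2.90-fold higher than either group, with floored differences of 1.58 in numbers 1 to 3 and 1.47 in the others. The remaining 2 probe sets of Ighm, J00475_V00785_at and J00475_V00785_g_at, were below the floor on every array, with ranges of -385 to 57 and -1046 to 0. Of 5 probe sets for this gene, then, 3 showed old controls above both other groups and 2 gave no reading. Among the 3, Msa.2056.0_f_at passed the filter of at least 5 arrays through the old controls alone. Its separation after flooring follows from that filter and adds no separate support.

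Ighg2c encodes the heavy chain of IgG2c, an IgG subclass that C57BL/6 mice carry in place of IgG2a. Its probe set Msa.806.0_s_at on table B read 5085, 4098, 3644, 3915 and 3915 in young controls. Old controls read 10977, 6904, 14119, 13528 and 7526, and calorie-restricted animals 5893, 5501, 5739, 5487 and 4638. Old controls lay above all others, and 4 of 5 calorie-restricted animals lay above all young controls. The change was 1.31 ± 0.19 with age and -0.90 ± 0.19 with the diet, close in the number sets (1.27 and 1.37 with age, -0.84 and -1.0 with the diet). Calorie-restricted mice stood 0.40 ± 0.19 above young controls. Heavy chains of the IgG subclasses are similar in sequence, and what else this probe set reads is not known. Another probe set, Msa.2432.0_at, was below the floor on every array, at 135 to 915.

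Iglc1 encodes a constant region of the lambda light chain, the less used light chain of mice. The readings of m94351_at on table A were near the floor: 840, 1560, 594, 997 and 816 in young controls, 1678, 48, 1085, 2427 and 1357 in old controls, and 1212, 1428, 784, 1585 and 1611 in calorie-restricted animals. The groups overlapped fully. The change was 0.31 ± 0.20 with age and -0.09 ± 0.20 with the diet. With age it was 0.04 for numbers 1 to 3 against 0.72 for numbers 4 and 5, and with the diet -0.03 against -0.18. At this signal a moderate change would not be measurable. The kappa light chain, which most mouse antibodies use, is described further on through the variable gene Igkv4-91.

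Jchain encodes the joining chain of polymeric IgA and IgM and is a product of antibody-secreting cells. Its probe set j00544_s_at on table A was below the floor in all young controls, at 765, 784, 996, 307 and 711. Old controls read 9794, 7514, 7660, 7649 and 8087, a mean of 8141 ± 949 (SD, n = 5). Calorie-restricted animals read 1973, 2093, 2608, 2256 and 1090, a mean of 2004 ± 564. The 3 groups did not overlap above the floor, and only calorie-restricted animal 5 lay below it like the young controls. The same animal was the lowest of its group for Igha. Old controls were at least 7.35-fold higher than young controls, with floored differences of 2.91 and 2.83 in the number sets, and the change with the diet was -2.07 ± 0.18, with -1.90 from numbers 1 to 3 alone and -2.32 from the other animals. The other probe set, aa254605_s_at, was below the floor on every array, at 47 to 775.

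**Figure D1:**
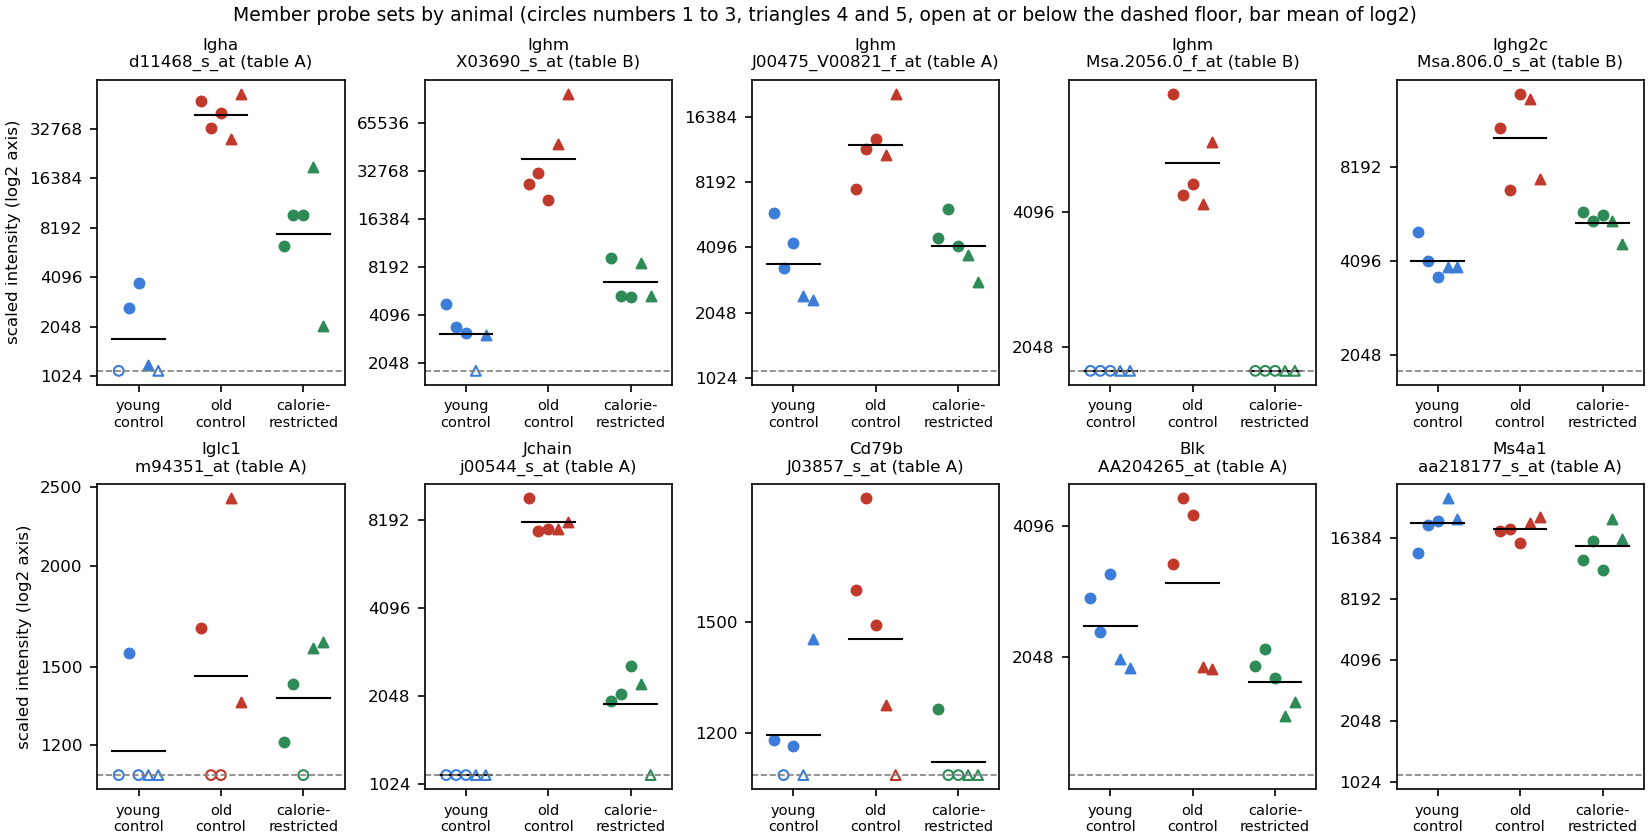
Scaled intensity on a log2 axis for the 10 measured probe sets, by group and animal, with circles for animals 1 to 3, triangles for 4 and 5, open symbols for values at or below the dashed floor (1103 in table A, 1815 in table B) and a bar at the mean of log2 values. For Igha, the 3 Ighm probe sets, Ighg2c and Jchain every old control lies above every other animal, while the groups overlap for Iglc1, Cd79b, Blk and Ms4a1.

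Among the B cell genes, Cd79b encodes the signalling beta chain of the B cell receptor. Its probe set J03857_s_at read 1184, 925, 1169, 831 and 1450 in young controls and 1601, 1926, 1492, 1269 and 826 in old controls. Calorie-restricted animals read 1259, 252, 244, 713 and 756, with 4 of 5 below the floor. Old and young controls overlapped, and so did old controls and calorie-restricted animals. The change was 0.28 ± 0.15 with age and -0.36 ± 0.15 with the diet. With age, numbers 1 to 3 gave 0.53 whereas numbers 4 and 5 gave -0.10, so the sign differed between the number sets. With the diet these values were -0.53 and -0.10.

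Blk encodes a Src-family kinase downstream of the B cell receptor. Its probe set AA204265_at read 2803, 2346, 3170, 2026 and 1937 in young controls, 3350, 4739, 4333, 1942 and 1928 in old controls, and 1959, 2144, 1837, 1505 and 1622 in calorie-restricted animals. Old controls 1 to 3 were above every young animal and old controls 4 and 5 were not. The change with age was 0.33 ± 0.24, made up of 0.57 for numbers 1 to 3 and -0.03 for the others. With the diet it was -0.75 ± 0.24, and -1.05 and -0.31 in the number sets. Calorie-restricted animals lay 0.42 below young controls on average (a difference of -0.42 ± 0.24), with 3 of 5 below all young animals. A further probe set, M30903_s_at, was below the floor throughout, at -228 to 657.

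Ms4a1 encodes CD20, a surface protein of B cells that plasma cells lack. Its probe set aa218177_s_at read 13770, 18989, 19737, 25805 and 20181 in young controls, 17706, 18081, 15454, 19293 and 20841 in old controls, and 12668, 15830, 11309, 20243 and 16204 in calorie-restricted animals. All groups overlapped, with changes of -0.09 ± 0.18 with age and -0.28 ± 0.18 with the diet. The number sets gave -0.02 and -0.19 with age, and -0.38 and -0.15 with the diet. The other probe set assigned to Ms4a1, M62541_s_at, was below the floor on every array, at -717 to 287. The 2 probe sets thus disagreed on whether the transcript was measurable, and which of them reads Ms4a1 was not tested.

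**Figure D2:**
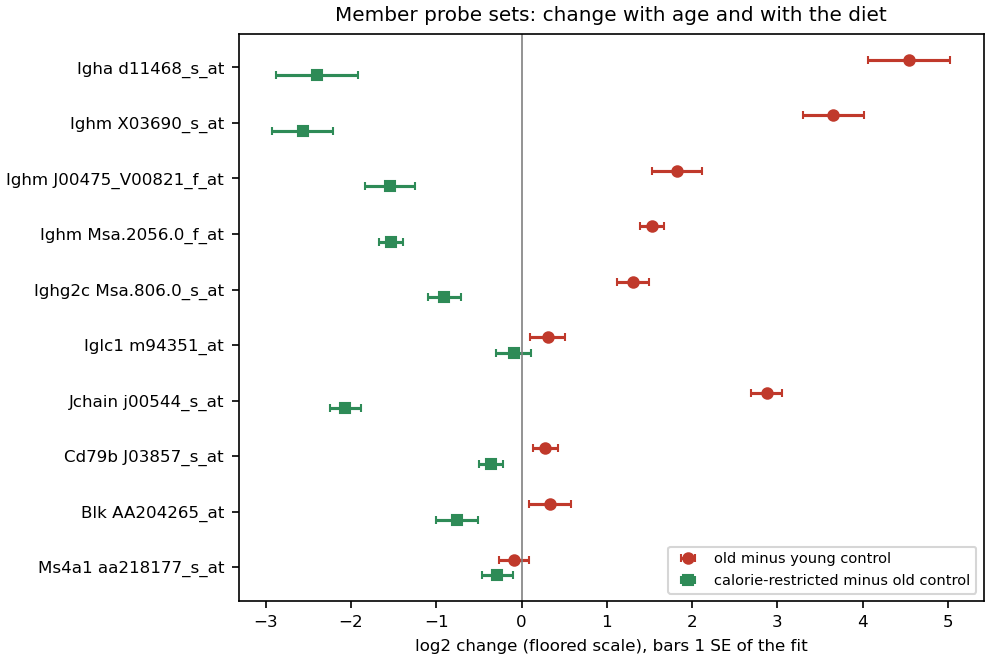
Log2 change on the floored scale of each measured probe set from young to old controls (circles) and from old controls to calorie-restricted mice (squares), with bars of 1 SE (n = 5 per group). The changes with age run from -0.09 for Ms4a1 to 4.54 for Igha, and those of Jchain and of Ighm Msa.2056.0_f_at with age are lower bounds because all young controls lay at the floor.

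By the call rule used across the arrays (limma with Benjamini-Hochberg adjustment below 0.05), 6 of the 10 probe sets were called higher with age, against 2.99% of the 4518 tested that were called higher and 5.16% called in either direction. Those shares include the exchanged class of table B described at the end: 106 of the 135 called higher lay outside it, and leaving it out took the calls in either direction from 233 to 150. With the diet 6 of 10 were called lower, against 1.7% called lower and 2.61% called in either direction. They were the same 6 probe sets, of Igha, Ighm, Ighg2c and Jchain. Every old control lay above every young control for those 6, against 3.43% of all tested. Every calorie-restricted animal lay below every old control for them too, against 2.37%. The median change of the 10 was 1.42 with age and -1.22 with the diet, beside -0.04 and 0.03 over all tested probe sets. Since the genes were chosen by these comparisons, the counts describe the choice and nothing is read from them.

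For the comparison within animals, each gene was set relative to its mean in young controls, using the brightest measured probe set, and averaged over Igha, Ighm, Ighg2c, Iglc1 and Jchain or over Cd79b, Blk and Ms4a1. The antibody chain and Jchain mean of old controls 1 to 5 was 2.61, 2.21, 2.37, 2.72 and 2.79 on the log2 scale. The B cell gene mean of the same animals was 0.26, 0.52, 0.28, -0.08 and -0.11. The antibody mean was high in every old control, which follows from the choice of these genes. The 2 animals with the highest antibody means were those with the lowest B cell mean. These were old controls 4 and 5, which make up a whole number set, so the pattern coincides with the split between sets. Whether the antibody and B cell means are related apart from that split was not tested. For Igha alone, animal 4 was the lowest old control, at 4.06, and animal 5 the highest, at 4.98. The group means of old controls were 2.54 ± 0.24 for the antibody genes and 0.17 ± 0.27 for the B cell genes (SD, n = 5).

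In calorie-restricted animals 1 to 5 the antibody chain and Jchain mean was 0.98, 0.99, 0.98, 1.37 and 0.34, above all young controls in each of them, whose highest was 0.24. For animal 5 this depends on the choice of Ighm probe set. It stood at 0.79 on X03690_s_at, with Igha at 0.28 and Jchain at the floor. On J00475_V00821_f_at it read 2843, within the young range of 2345 to 5919. The mean with that probe set was not calculated. The B cell gene mean of calorie-restricted animals was -0.28, -0.19, -0.43, -0.24 and -0.31, below the lowest young control, -0.10, in each. The group means were 0.93 ± 0.37 for the antibody genes and -0.29 ± 0.09 for the B cell genes. Leaving Ms4a1 out, which was decided once its probe sets had been seen to disagree, the B cell mean was 0.31 ± 0.45 in old controls and -0.25 ± 0.12 in calorie-restricted animals. The separation from young controls was then lost, since calorie-restricted animals 1 and 2 stood at -0.11 and -0.14, above young control 4 at -0.18. Within an animal the antibody mean exceeded the B cell mean by 2.36 ± 0.50 in old controls (1.69 to 2.90) and by 1.22 ± 0.36 in calorie-restricted mice (0.65 to 1.61). The group was taken up because immunoglobulin genes were higher in old controls in these same data. A positive excess in old controls therefore follows from that choice, and it is given as a description only. The probe sets of Blk disagreed in the same way, since M30903_s_at was below the floor throughout, but Blk was kept in both means. A mean without Blk was not calculated. The B cell mean rests on few readings, since Cd79b was near the floor, and its values are small beside those of the antibody genes.

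**Figure D3:**
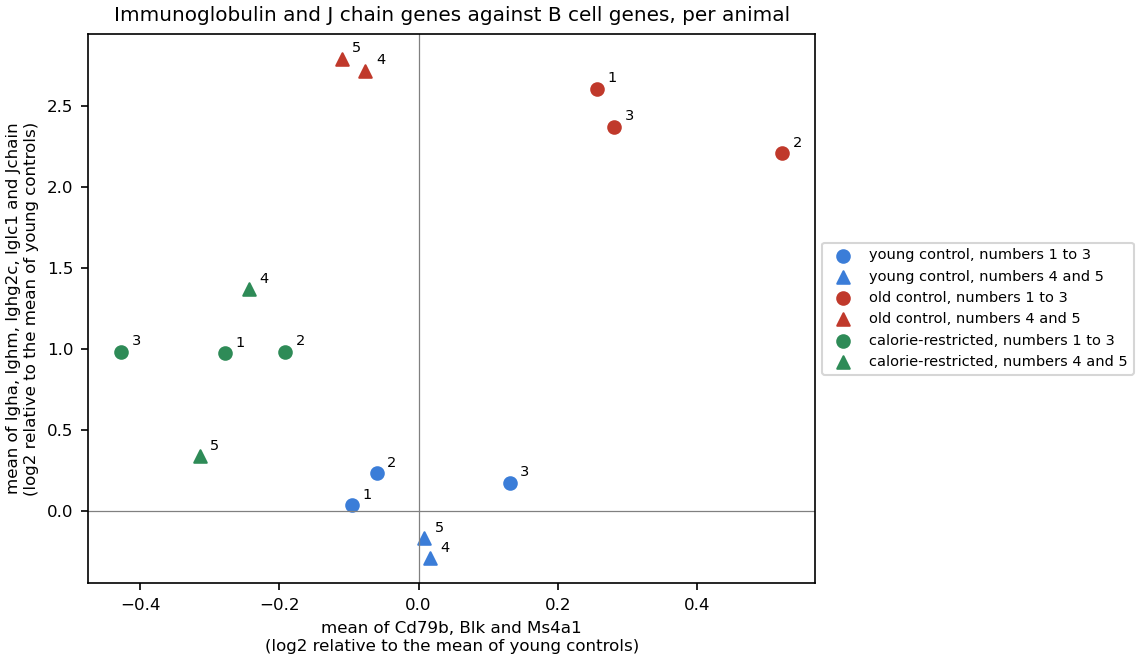
Mean log2 level of Igha, Ighm, Ighg2c, Iglc1 and Jchain (vertical) against that of Cd79b, Blk and Ms4a1 (horizontal), relative to the mean of young controls, with 1 numbered point per animal. Old controls lie between 2.21 and 2.79 on the vertical axis, calorie-restricted animals between 0.34 and 1.37 and to the left of every young control, a separation on the horizontal axis that is lost without Ms4a1.

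The antibody genes did not vary together in the same way within groups. Deviations from the group means over the 15 animals gave Jchain the highest likeness to Igha of all named genes outside the immunoglobulins, with r of 0.714. Ighm X03690_s_at (0.183) and Ighg2c (-0.02) were much less like it, and the B cell genes Ms4a1 (0.141), Blk (0.126) and Cd79b (-0.192) were so too. With the difference between number sets also removed, r was 0.807 for Jchain, 0.145 for Ighm X03690_s_at and 0.614 for Ms4a1, so the value of Ms4a1 depended on that step. The next genes after Jchain were Scin (0.702), an actin-severing protein, Rps27l (0.683), Gfra3 (0.683), Trp53i13 (0.678) and Slc27a2 (0.667), a fatty acid transporter. With the number sets removed, Scin (0.838) and Rps27l (0.828) were above Jchain, so the order of these genes depended on that step too. These values describe 15 animals that fall into number sets. Jchain was at the floor in every young control, so those animals add no shared deviation to its r with Igha. Calorie-restricted animal 5 was the lowest of its group for both genes, and at the floor for Jchain. The r without that animal was not calculated. Of the 5 genes after Jchain, Gfra3 was called with age, at 0.80 ± 0.22 (limma adjusted p = 0.0426), and none was called with the diet.

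Other immunoglobulin genes were mostly too dim to read. Of 9 on the arrays, 6 were never above the floor and 1, the kappa variable gene Igkv4-91, was tested. Its probe set x88903_f_at read 6314, 5562, 3939, 5030 and 3981 in young controls, 6687, 7386, 6210, 6338 and 8097 in old controls, and 4599, 3308, 2324, 4865 and 3864 in calorie-restricted animals. It fell with the diet (-0.91 ± 0.20, limma adjusted p = 0.0171), with every calorie-restricted animal below every old control, and was 0.50 ± 0.20 with age (adjusted p = 0.193). The dimmer probe set Msa.2529.0_f_at did not pass in either comparison (0.55 ± 0.27 and -0.66 ± 0.27). Ighv5-12 was above the floor in 3 old controls and in no other animal, at up to 2226, on u23089_f_at, a probe set with the family suffix. Its other probe set, u23089_r_at, was below the floor on every array, with means of 83 in young, 68 in old and 118 in calorie-restricted animals. Ighg3, an IgG subclass, and Ighd, the chain of IgD, were below the floor on every array. Igh-VS107 and Ighv2-4 belong to a class of table B probe sets whose young values had changed places, and no age change is read from them there.

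Plasma cell markers gave little signal. The transcriptional regulators Prdm1, Irf4 and Pou2af1 and the surface proteins Sdc1 and Cd27 were below the floor on all arrays. Xbp1, the factor that expands the secretory machinery and is also made by kidney cells, was the only tested member of that list of 6, at 1994 to 3815 in young, 2696 to 3795 in old and 1706 to 3305 in calorie-restricted animals (0.21 ± 0.21 with age and -0.31 ± 0.21 with the diet). Of 10 tested genes for protein folding and export in the endoplasmic reticulum, limma called 0 in either comparison, with 1 at an unadjusted p below 0.05 in each. The brightest, the chaperones Calr and Ppib, stood at 0.04 ± 0.32 and 0.00 ± 0.12 with age. The medians of these 10 were 0.03 and -0.11, beside -0.04 and 0.03 over all probe sets.

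Further B cell markers were below detection as well. Of 24 on the arrays, 18 were never above the floor, among them Cd79a, Cd22, Pax5 and Cr2. Of the 4 tested, limma called 0 in either comparison, with 2 at an unadjusted p below 0.05 with age and 0 with the diet. Cd24a, a surface protein that kidney epithelium also makes, was 5265 to 7724 in young, 7788 to 10941 in old and 9670 to 14306 in calorie-restricted animals (0.53 ± 0.16 with age, limma adjusted p = 0.0614, and 0.25 ± 0.16 with the diet). It passed with age in 6 of 30 alternatives. Spib, a transcription factor of B cells, stood at 0.29 ± 0.20 and -0.32 ± 0.20. Cd72, a B cell surface protein, was above the floor in 2 old controls, at up to 1645, and in no other animal. Cxcr5 of the same list went the other way, above the floor in 2 young controls, at up to 1969, and in no other animal. Summed over the 4 tested genes the intensity was 12183 to 15511 in young, 16515 to 20606 in old and 16858 to 21935 in calorie-restricted animals, a sum in which Cd24a is the largest part.

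**Figure D4:**
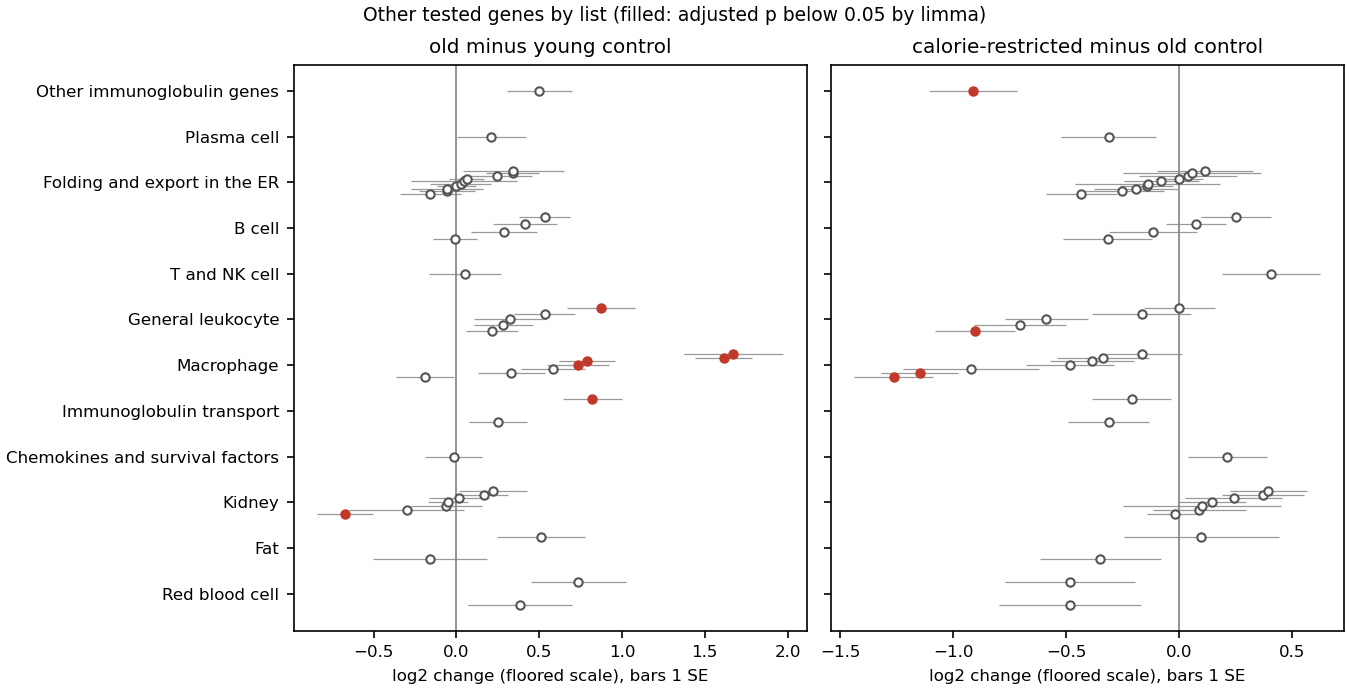
Log2 change on the floored scale, with bars of 1 SE (n = 5 per group), of the tested genes of 12 lists, from young to old controls at left and from old controls to calorie-restricted mice at right, 1 point per gene and filled where the limma adjusted p was below 0.05. In the macrophage list 4 of 7 genes are filled at left and 2 at right, and in the B cell list 0 of 4 on either side.

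Of the genes that bind or carry antibody, Pigr rose with age. Its probe set aa691244_at read 7114, 5473, 6479, 4969 and 6589 in young controls, 11240, 12447, 12926, 7876 and 9972 in old controls, and 12245, 6421, 8783, 8289 and 8390 in calorie-restricted animals. Every old control lay above every young control, a change of 0.82 ± 0.18 (limma adjusted p = 0.00973), while with the diet it was -0.31 ± 0.18 (adjusted p = 0.452) and the groups overlapped. Within number sets the change with age was 0.95 and 0.63. The other probe set, U06431_s_at, gave 0.70 ± 0.20 with age (adjusted p = 0.0519) and 0.09 ± 0.20 with the diet. In calorie-restricted mice Pigr was above all young controls in 4 of 5 animals on each probe set. Fcgrt, the neonatal receptor that returns IgG to the circulation, was 0.25 ± 0.18 with age and -0.21 ± 0.18 with the diet.

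Some markers of other white blood cells were called as well. Of 7 tested macrophage genes 4 rose with age: the protease Ctss by 1.61 ± 0.17 (adjusted p = 7.49e-06), lysozyme Lyz2 by 1.67 ± 0.30 (0.00183), the complement chain C1qb by 0.79 ± 0.17 (0.00839) and the receptor chain Fcer1g by 0.73 ± 0.19 (0.0282). The call for Fcer1g was lost on leaving out old control 2 or 3 or young control 2, 4 or 5, with changes of 0.64 to 0.84 over all such fits. C1qb is on table B, where young values were checked for row order only around the members. Ctss and C1qb fell with the diet, by 1.26 and 1.15 on the log2 scale (limma adjusted p = 0.000483 and 0.000844). Summed over all 7 tested macrophage genes, which include Cd14 and C1qc, the intensity was 20561 to 31642 in young, 35921 to 46997 in old and 20237 to 34197 in calorie-restricted animals. Of 5 general leukocyte genes, Laptm5 rose with age (0.87 ± 0.20, adjusted p = 0.0148) and Cd37, a tetraspanin abundant on B cells, fell with the diet (-0.90 ± 0.18, adjusted p = 0.0103), with 0.28 ± 0.18 for age. The sums over all 5 leukocyte genes, of which the uncalled Ptprc (0.22 ± 0.16 with age) is the brightest, were 12176 to 15637, 18320 to 22118 and 11688 to 18928 in the same order of groups. The part of these cells in the antibody gene values was not tested.

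T and NK cell genes were nearly all below detection, with 16 of 17 never above the floor and Cd3e at 0.05 ± 0.22 with age and 0.41 ± 0.22 with the diet, summing to 698 to 1522 in young, 312 to 1906 in old and 151 to 2690 in calorie-restricted animals. Cxcl12, a chemokine that retains plasma cells in bone marrow, was the 1 tested gene of 7 chemokines and survival factors (-0.02 ± 0.17 and 0.21 ± 0.17). Vcam1 of the same list, on table B, did not pass the filter. It was above the floor in 3 old controls, at up to 2359, and in no other animal. Of 7 kidney genes 1 was called, the calcium-binding Calb1 of the distal tubule, which fell with age (-0.67 ± 0.17, adjusted p = 0.0265). That call was lost without old control 1, 3 or 4 or young control 1, 2 or 3, with -0.77 to -0.59 over all such fits. Of 2 fat and 2 red blood cell genes limma called 0 in either comparison, and at an unadjusted p below 0.05 only 1, with age, a red blood cell gene. Hba-a1 stood at 0.73 ± 0.29 with age (adjusted p = 0.194).

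The table B values for young controls needed a check of row order, since in probe sets of that table that share a stem and end in i, f, s or r young values had changed places. For Igh-VS107 the f probe set (Msa.814.0) averaged -36 in young and 1130 in old controls, and the i probe set of the same stem 1090 and -6. The table B probe sets of Ighm and Ighg2c share no stem with another. Over the 101 rows around each of these 4 probe sets, young and old control means correlated at r of 0.956, 0.963, 0.842 and 0.979 in matching rows, against at most 0.229 when rows were shifted by up to 5. The rows around them were thus not shifted as a block between young and old controls. The lowest value, 0.842 around Ighg2c Msa.806.0_s_at, stood beside 0.948 for calorie-restricted animals against old controls over the same rows. Whether single rows, or the member row itself, had changed places is not tested by such shifts. Igha, Jchain and the J00475_V00821_f_at probe set of Ighm are on table A and do not depend on the row order of table B.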

How the data were processed

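Arrays of 1 colour were read as the intensity values deposited by the authors, whole numbers per probe set that include negatives (20.8% to 26.6% per table A array and 29.2% to 35.9% per table B array). The software behind them is not given in the sources used here. Within a table the arrays were brought to an equal trimmed mean (2% removed from either end, factors 0.997 to 1.01). Values under a floor, the root mean square of a table's negative readings, were raised to it before log2 was taken. Probe sets above the floor on at least 5 arrays were tested, 2609 in table A and 1909 in table B. Left out were 122 controls and 77 rows blank on young arrays, of which 16 were not controls.

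Groups came from the sample titles, and the arrays of an animal were joined by group and number. A model over the 3 groups was fitted in R 4.3.3 with lmFit and eBayes of limma 3.58.1, two-sided, and calls were made at 0.05 after Benjamini-Hochberg adjustment across the tables together. The fit was checked on simulated data. The members and the gene lists were chosen with earlier results of these data known, so members are described without p-values. Named were all members, up to 5 called genes per list or, where fewer than 2 were called, the 2 brightest, and the 6 genes most like Igha. Outside that rule, Ptprc, Cd14, C1qc, Cd79a, Cd22, Pax5, Cr2, Cd72, Cxcr5, Vcam1, Ighg3, Ighd, Ighv5-12, Prdm1, Irf4, Sdc1, Pou2af1 and Cd27 were named after their values were seen. Symbols came from the platform annotation, updated by gene number through a RefSeq table of GRCm38.p6, with 1 symbol for 5560 probe sets of table A and 2001 of table B, several for 197 and 27, and none for 785 and 4506. Alternatives covered scaling, floor, transform, filter, moderation, samples in the fit, a replicate block, the number sets and leaving out each animal. The number of arrays limits the precision. Figures were drawn with matplotlib 3.10.9.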

Additional observations from a re-analysis of the deposited data

Results flagged for a closer look

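Of 33 groups of 5 animals examined, 1 held an animal far from the others. Jchain j00544_s_at in old control 1 read 9794, while the other old controls read 7514 to 8087, so that the gap to the nearest was 0.749 of the whole range of the group, past the limit of 0.71. Chance gives such a gap in about 1 in 20 groups. It does not bear on the separation from the other groups, since the other 4 old controls were all above them as well.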

How the results depend on the processing

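Of 588 recalculated member changes (20 changes under up to 30 alternatives, 15 of them leaving out an animal), 568 stayed within the spread between animals, 20 moved beyond it and 0 reversed a called direction. Some alternatives leave the difference between group means as it is. They are the filter, the moderation, the replicate block, the number set as a term and leaving out the exchanged class. The same holds for fits of the 2 groups or of each table alone, and for leaving out an animal of a group not compared. The 568 therefore include values that were fixed in advance. Between number sets, the antibody chain and Jchain mean changed with age by 2.24 (numbers 1 to 3) and 2.98 (numbers 4 and 5) against 2.54 in all, and with the diet by -1.90 in numbers 4 and 5 against -1.61. The B cell mean changed with age by 0.36 and -0.11 against 0.17, and with the diet by -0.65 and -0.19 against -0.47, and by -0.65 with the floor halved. The count called with age, 233, was 146 in numbers 4 and 5 and 150 without the exchanged class of table B. With the diet, 118 became 50 with a filter of at least 10 arrays, 68 without a filter, 224 with the number set as a term, 253 in numbers 1 to 3, 9 in numbers 4 and 5, and 72 with only the 2 groups compared. Leaving out 1 animal gave 179 to 254 calls with age and 73 to 133 with the diet, the lowest without calorie-restricted animal 1 and 78 without animal 5. The cause of these shifts was not tested, beyond the fewer samples in the number sets. A floor that is doubled or a filter of at least 10 arrays leaves some members and means without a value. With the replicate block the calls were 277 and 170. Member changes cannot move under it, since every group holds each number once. Same-numbered animals correlated at -0.01 to 0.489, with 13 of 15 over 0.1, and 3 of 15 animals were most like one of their own number. Their mean r was 0.261, beside 0.267 for different numbers of the same number set. Same-numbered animals were thus no more alike than others of their number set. Whether the numbers pair the animals cannot be told from this, since the number sets dominate these values. The call for Pigr with age was lost in each number set alone, Laptm5 in 3 alternatives, Fcer1g in 9, Calb1 in 8, Igkv4-91 with the diet in 2 and Cd37 in 1. Those for Lyz2 and C1qb with age and for Ctss and C1qb with the diet were each lost in 1 number set. Depth is not defined for arrays, and signal over the floor limits Iglc1, Cd79b and Jchain in young controls.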

Other observations

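Many probe sets that moved like the antibody genes carry no gene symbol. Outside the exchanged class, 106 probe sets were called higher with age, and 42 of these were table B probe sets without a symbol, 39 of them with the family suffix f, out of 445 tested ones of that kind. Unnamed table B probe sets were common among those tested, at 1111 beside 4518 tested in all. Both a call upward with age and a call downward with the diet were made for 55, and 31 of them were unnamed table B probe sets. V00802_f_at read 703 to 4275 in young controls, 58352 to 129825 in old controls and 5528 to 21267 in calorie-restricted animals (4.99 ± 0.33 with age and -2.55 ± 0.33 with the diet), and its deviations correlated with those of Igha at r of 0.887 over the 15 animals. ET62762_f_at read 140 to 2041, 30472 to 83611 and 1186 to 6675 (4.59 ± 0.31 and -3.48 ± 0.31), at r of 0.655. Both were singled out after their values were seen, and what they read is not named here.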
